A study of Homo sapiens with 11 samples.

Results

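The comparison described here set the R72 form of the p53 mutant R273H against its P72 form in H1299 cells. It used 5 of the 11 libraries of the study: R72 replicate 3, which was the R72 library of this mutant, and P72 replicates 1, 2, 3 and 4. They were chosen by the hotspot and codon 72 form in their labels and not by any measured value. With 1 library in the R72 arm the comparison is descriptive, and each gene is reported by whether the R72 library lay outside the range of the 4 P72 libraries. An exact one-sided permutation test of 1 library against 4 cannot go below p = 0.2.

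H1299, a line from a human lung carcinoma, lacks endogenous p53. In every group the cells had received 5 µg of a mutant p53 construct by transfection and then 14 days of neomycin (800 µg/ml), which the labels describe as giving stable lines. The groups used below were R273H with P72 (4 libraries), R273H with R72 (1 library), R175H with P72 (3 libraries) and R175H with R72 (3 libraries). By their labels, R273H P72 replicates 2, 3 and 4 and R175H R72 replicate 1 were batch b1 and the other 7 libraries were batch b2, so the R72 library shared its batch with P72 replicate 1 alone among the R273H libraries. The labels give no clone number and do not say whether replicates were separate cultures, so p-values measure the spread between these libraries, which may be technical.

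The protein p53 is a transcription factor that binds DNA as a tetramer and controls genes of cell cycle arrest, cell death and metabolism. R175H and R273H are hotspot mutations of its DNA-binding domain: R175H disturbs the fold of that domain, while R273H removes a residue that touches DNA. Codon 72 lies outside it, in a proline-rich region, and is polymorphic in people between proline and arginine. Mutant p53 is known to act through other transcription factors, among them SREBP2 at genes of sterol synthesis. PGC-1α, a coactivator of mitochondrial biogenesis, stands in the title of the study beside the metabolism of tumours and their spread.

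Levels are given as CPM (estimated counts scaled to a common library size), with P72 values in the order of replicates 1, 2, 3 and 4. A 3′ tag reads neither the hotspot codons nor codon 72, so no level here checks those labels. Whether 3′ reads follow the amount of noncoding RNAs and of replication-dependent histone mRNAs was not tested.

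The R273H libraries held 8661662 to 12829560 estimated counts, with 10440919 in the R72 library. Mitochondrially encoded genes took 5.52% of counts in the R72 library and 4.27% to 4.67% in the P72 libraries. The trend of expression with the GC content of 3′ ends was -0.0933 log2 units per 10% GC in the R72 library and -0.0709 in P72 replicate 1, both of batch b2. It was 0.041 to 0.0556 in the 3 P72 libraries of b1. Other b2 libraries had either sign: 0.0141 to 0.0433 for R175H P72, and -0.0915 and -0.0612 for R175H R72 replicates 2 and 4. A negative trend was therefore not shared by all of b2. The root mean square difference in log2 CPM, over 8968 genes of at least 10 CPM, was 0.25 between the R72 library and P72 replicate 1. It was 0.344, 0.382 and 0.449 between the R72 library and P72 replicates 4, 3 and 2, and 0.212 to 0.292 among the 3 P72 libraries of b1. P72 replicate 1 was itself 0.307 to 0.42 from those 3 libraries, so the R72 library stood nearer to its batch partner than that partner did to the other P72 libraries. The first principal component of the 5 libraries held 61.6% of the variance and separated the batches. How much of the differences given below comes from batch or GC content was not tested beyond the fits with a batch term, within b2 and with the GC trend removed.

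**Figure D1:**
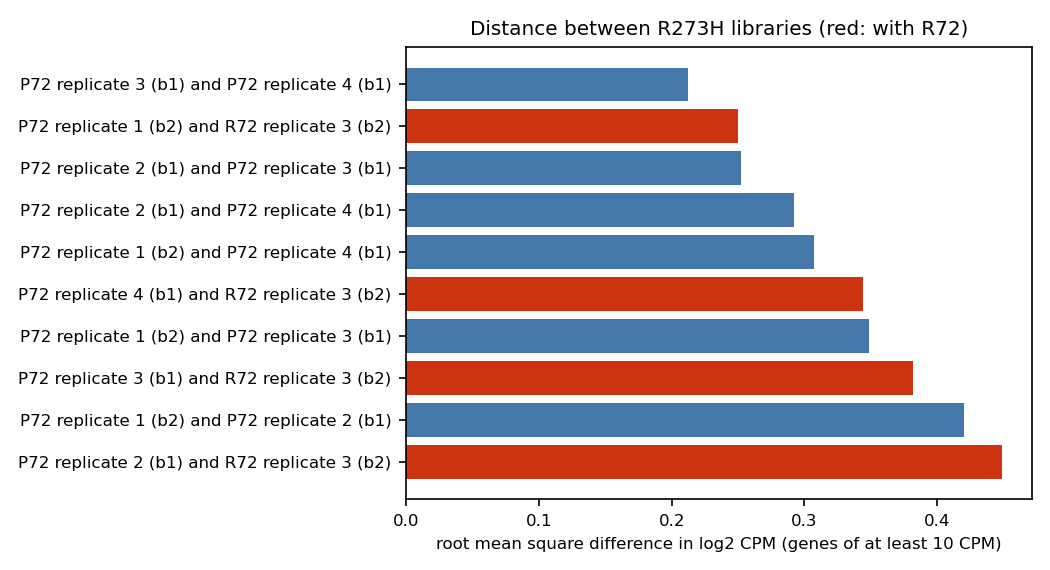
Horizontal bars give the root mean square difference in log2 CPM between each pair of the 5 R273H libraries, over genes of at least 10 CPM, with the pairs that include the R72 library in red. The pair of R72 replicate 3 and P72 replicate 1, both of batch b2, has the second shortest bar at 0.25, and the other 3 red bars reach 0.344 to 0.449.

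The R72 library lay outside the P72 range in 7713 of the 16324 genes tested (47.2%), above it in 3803 (23.3%) and below it in 3910 (24%). Were the 5 libraries alike, any 1 of them would be highest in a share of about 0.2 of genes and lowest in as many. For genes of at least 10 CPM the median distance to the nearest P72 library was 1.08-fold, and in 51.2% of those outside the range that nearest library was P72 replicate 1. After Benjamini-Hochberg adjustment edgeR's quasi-likelihood test, with batch in the model, called 0 genes (0%) at an adjusted p under 0.05, and 1265 (7.75%) had an unadjusted p under 0.05. With the same design limma-voom called 0 and DESeq2 112, of which 104 lay outside the range, 21 being higher and 91 lower. Both conditions, a place outside the range and an unadjusted p under 0.05, were met by 1062 genes (6.51%), 451 above the range (2.76%) and 611 below it (3.74%). Among genes of at least 10 CPM they were met by 3.45% above and 5.53% below. Scaling by library totals turned this split to 619 above and 498 below. Since no gene passed the adjusted test, genes below are given as higher or lower by their values and not as changed. Genes that meet both conditions are said to stand outside the range with an unadjusted p under 0.05. In such genes the place of the R72 library as highest or lowest of the R273H libraries follows from the rule. List counts below are to be set beside the shares of all genes given here. For list counts of 3 or more genes that meet both conditions, the left-out libraries and settings that moved the count by over 1.5 times are named, and those of the replicate block, which joins libraries by a number that does not pair them, stand together in the closing section.

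Among genes of at least 10 CPM the highest fitted fold changes belonged to genes of unlike kinds. LRRC37B (ENSG00000185158, chr17:32007872-32053504), a gene of a leucine-rich repeat protein with several relatives in the genome, was measured at 9.10, 10.2, 7.04 and 8.14 CPM with P72 and at 16.8 CPM with R72. That library was 1.65-fold above the highest P72 library, and the log2 fold change was 1.11 (SE 0.257, adjusted p = 0.149 by edgeR). ARRDC3, an arrestin-like adaptor that controls receptor trafficking, had 55.4, 45.5, 57.5 and 55.8 CPM against 87.5 CPM (log2 fold change 0.87, SE 0.177). For both genes the R72 library lay above all 4 P72 libraries, as the rule required.

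Also among the highest were genes of the cell surface and of the matrix. LOXL1, a lysyl oxidase that cross-links elastin, had 185, 150, 173 and 198 CPM with P72 and 275 CPM with R72 (log2 fold change 0.68, SE 0.156). ANPEP, the membrane peptidase aminopeptidase N, had 38.0, 32.6, 41.8 and 41.2 CPM against 59.2 CPM. C12orf54, an open reading frame of unclear role, had 33.4, 37.5, 36.6 and 36.1 CPM against 59.0 CPM (log2 fold change 0.75, SE 0.172). In these 3 genes the R72 library was 1.39-fold to 1.57-fold above the highest P72 library.

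MT-RNR1, the ribosomal RNA of the small mitochondrial subunit, was measured at 3559, 4623, 4968 and 5279 CPM with P72 and at 6068 CPM with R72. Here P72 replicate 1 was the lowest library and the R72 library of the same batch the highest. The fit gave a batch difference of -0.43 (b2 minus b1, log2, adjusted p = 0.00788 by edgeR) and a log2 fold change of R72 over P72 of 0.73 (SE 0.147, adjusted p = 0.119). The ratio of both b2 libraries alone was 0.77 on the log2 scale. The R72 value was 1.15-fold above the highest P72 library.

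MGAT5B, a glycosyltransferase, RPL35, a ribosomal protein, NUDT17, a hydrolase of the nudix family, CPNE2, a copine, NT5DC2, a protein with a nucleotidase domain, and ZNF320, a zinc finger protein, complete the 12 highest, with log2 fold changes of 0.68 to 0.79. RPL35 had 90.6, 62.5, 77.6 and 77.7 CPM against 130 CPM. MGAT5B had 9.41, 9.502, 9.69 and 9.94 CPM against 14.1 CPM, a narrow P72 range. Of the 12, 7 share exonic sequence with a gene of the opposite strand and ZNF320 with a gene of its own strand, so strand-blind counting, which no label speaks for or against, would join their reads.

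The lowest fold changes were larger than the highest ones. The R72 library was at least 1.5-fold below the lowest P72 library in 10 of the 12 lowest genes and at least 1.5-fold above the highest in 3 of the 12 highest. ATRIP, the partner through which the checkpoint kinase ATR is recruited to damaged DNA, had 12.3, 12.6, 11.4 and 10.7 CPM with P72 and 5.50 CPM with R72 (log2 fold change -1.13, SE 0.249). ATRIP shares exonic sequence with a gene of its own strand. Among the 12 lowest, C9orf114, ZDHHC23 and KCNMB1 share exonic sequence with a gene of the opposite strand. METAP2, an aminopeptidase that removes the first methionine of new proteins, had 640, 1025, 822 and 951 CPM against 351 CPM (log2 fold change -1.07, SE 0.348). C9orf114, encoding a protein of the methyltransferase type, had 169, 272, 213 and 265 CPM against 78.0 CPM (log2 fold change -1.18, SE 0.347). In METAP2 and C9orf114 the P72 libraries also differed among themselves, with P72 replicate 1 the lowest of the 4.

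KCNMB1, a regulatory subunit of the large-conductance potassium channel, had 33.4, 33.4, 43.5 and 39.9 CPM with P72 and 17.8 CPM with R72. NDUFB7, an accessory subunit of respiratory complex I, had 70.8, 59.1, 91.9 and 73.0 CPM against 36.5 CPM. RHEBL1, a small GTPase related to the mTOR activator RHEB, had 47.4, 51.5, 40.5 and 41.1 CPM against 26.4 CPM. For these 3 genes the log2 fold changes were -0.95 (SE 0.256), -0.89 (SE 0.269) and -0.85 (SE 0.196). The R72 library, below the range by rule, lay 1.53-fold to 1.88-fold below the lowest P72 library. ADM, encoding the vasodilator peptide adrenomedullin, ANKRD1, a nuclear ankyrin repeat protein, and ZDHHC23, a palmitoyltransferase, had log2 fold changes of -1.003, -0.97 and -0.96. ANKRD1 spread most among P72 libraries, at 24.7, 40.6, 28.0 and 21.6 CPM against 14.0 CPM.

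**Figure D2:**
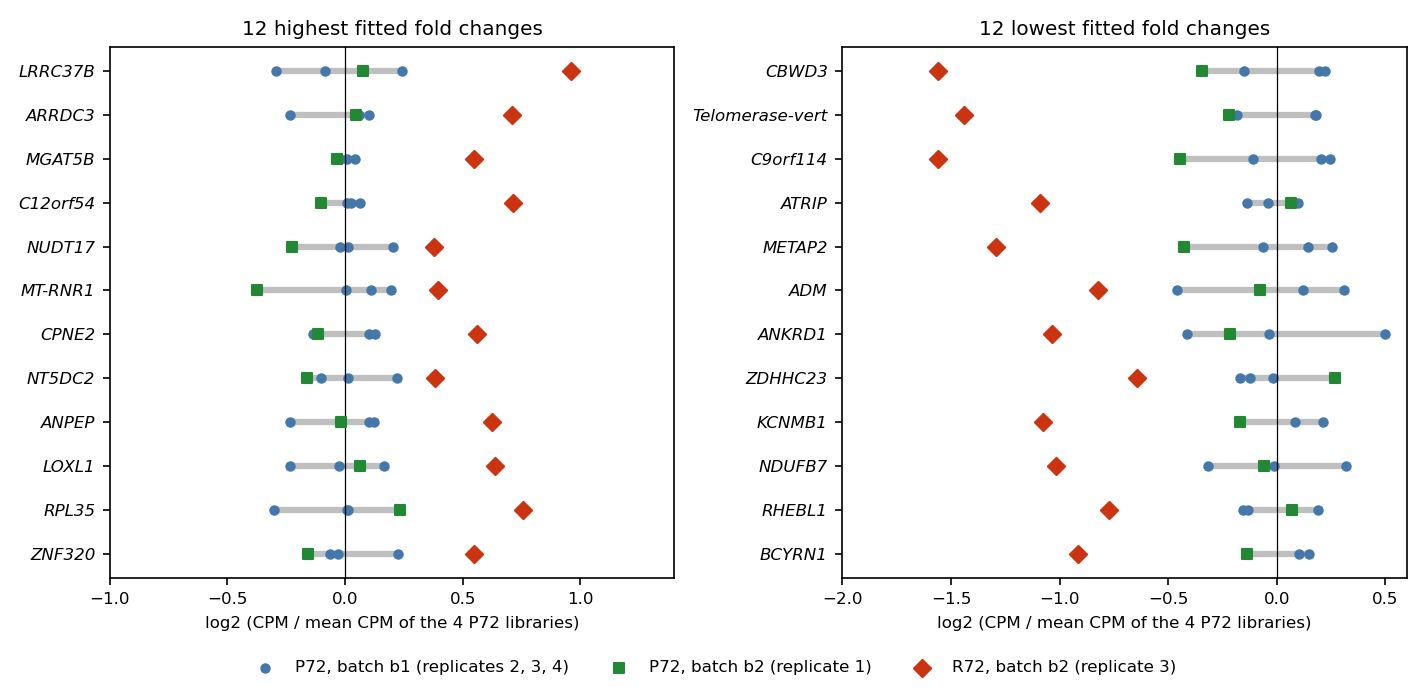
Each row is a gene and the horizontal axis gives log2 of its CPM over the mean CPM of the 4 P72 libraries, for the 12 highest and the 12 lowest fitted fold changes, with the grey bar spanning the P72 range. The R72 diamond lies outside every grey bar, by rule, and nearer to it in NUDT17 and MT-RNR1 than in LRRC37B or CBWD3.

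Among the lowest genes were 2 noncoding RNAs. The first, Telomerase-vert (ENSG00000277925, chr3:169764610-169765047), is an annotated model of the telomerase RNA, whose template telomerase copies onto chromosome ends. It was measured at 61.6, 80.9, 81.2 and 63.1 CPM with P72 and at 26.4 CPM with R72. The R72 value was 2.33-fold below the lowest P72 library (log2 fold change -1.24, SE 0.199, adjusted p = 0.0616 by edgeR). A second model on the same strand, TERC, had 6.999, 8.80, 7.04 and 5.50 CPM with P72 and 7.47 CPM with R72, within the range, and RSEM can share out reads between both models. With both summed, an alternative added after the values were seen, the level was 68.6, 89.7, 88.2 and 68.6 CPM against 33.9 CPM (log2 fold change -1.04, adjusted p = 0.103 by edgeR). The first 60 bases of the Telomerase-vert model (hg38, chr3:169764988-169765047, minus strand, GENCODE 29) are printed with the template region in capitals. Bases are numbered from the start of that model, which need not be the start of the RNA.
Telomerase RNA, bases 1 to 60: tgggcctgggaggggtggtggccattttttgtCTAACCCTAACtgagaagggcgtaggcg

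The second was BCYRN1 (ENSG00000236824, chr2:47335315-47335514), the gene of BC200 RNA, an Alu-related RNA known to repress translation, which is made in neurons and in many tumours. It was measured at 10770, 10750, 13120 and 12690 CPM in the P72 libraries and at 6271 CPM with R72, 1.71-fold below the lowest of them. Its log2 fold change was -0.83 (SE 0.186, adjusted p = 0.149 by edgeR). Reads of this gene may come from other Alu copies. BC200 RNA holds 2 runs of 8 or more A, and whether reads started there was not tested.

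CBWD3, which had the lowest fold change of all genes of the rule, is 1 of 6 near-identical copies. Alone it had 18.8, 27.9, 21.6 and 27.4 CPM with P72 and 8.12 CPM with R72 (-1.58 on the log2 scale, SE 0.369). Summed over the copies, in the alternative just named, the family had 140, 110, 108 and 112 CPM against 132 CPM, within the range (log2 fold change -0.09). The low value of CBWD3 was therefore not seen in its family as a whole.

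PPARGC1A, which encodes PGC-1α, had 2.64, 3.05, 3.35 and 2.64 CPM in the P72 libraries and 4.57 CPM in the R72 library. The R72 library was the highest, 1.37-fold above the nearest P72 library, at a level below 10 CPM in all 5. The log2 fold change was 0.74 (SE 0.383, adjusted p = 0.678 by edgeR). PPARGC1B, its relative, had 7.70, 8.68, 8.54 and 8.88 CPM against 8.21 CPM and lay within the range. Of the 36 genes of the list of PGC-1 coactivators and mitochondrial biogenesis, 9 lay above and 10 below the range, near the shares of 23.3% and 24% in all genes, and 0 of these had an unadjusted p under 0.05. The median log2 fold change of the list was -0.062, against 0.002 over all genes tested. ESRRA, a nuclear receptor that PGC-1α binds, had 49.2, 29.8, 35.5 and 45.2 CPM against 37.0 CPM, within the range. SIRT1, a deacetylase that acts on PGC-1α, lay above it with 39.5 CPM against 30.1 to 35.9 CPM, and POLRMT, the mitochondrial RNA polymerase, lay below it with 16.6 CPM against 19.6 to 26.5 CPM.

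Of the 13 mitochondrially encoded mRNAs, 10 lay above the P72 range and 0 below it, and of these MT-ND4L had an unadjusted p under 0.05. Across all genes tested 23.3% lay above the range and 24% below it. MT-ND4L, a complex I subunit, had 251, 252, 275 and 272 CPM with P72 and 365 CPM with R72 (log2 fold change 0.45, SE 0.135). MT-CO2, a catalytic subunit of cytochrome oxidase, had 3667, 3828, 3755 and 3424 CPM against 4627 CPM. MT-ND3 had 2243, 2262, 2410 and 2439 CPM against 2814 CPM. All 3 mRNAs were highest in the R72 library, which also had the largest share of mitochondrial counts. The median over the 13 was 0.114 from the fit and 0.316 for both b2 libraries alone, with 12 of 13 positive. Without P72 replicate 1, the batch partner, the fitted median was -0.21. With no batch term it was 0.22. The sign of the fitted median with a batch term therefore rested on that library, while the measured levels of the 10 mRNAs lay above those of all 4 P72 libraries. The count above the range with an unadjusted p under 0.05 was 7 without R175H R72 replicate 1 or with the R273H libraries alone. MT-ND6, the mRNA read from the other mitochondrial strand, had 312, 310, 249 and 179 CPM against 191 CPM, within the range.

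Nuclear subunits of complex I stood on both sides: of 37, 13 lay above and 13 below the range, and 4 below it had an unadjusted p under 0.05. Among these was NDUFB7, given above. Of all genes tested, 23.3% lay above the range and 24% below it, and 3.74% met both conditions below it. NDUFS3, a core subunit, had 154, 124, 130 and 124 CPM with P72 and 107 CPM with R72. NDUFS6, an accessory subunit, had 288, 321, 282 and 292 CPM against 231 CPM. Each of these subunits was by rule lowest in the R72 library. Without P72 replicate 1, 0 of the list met both conditions below the range. NDUFB3 had 55.8 CPM in P72 replicate 1, 17.4 to 26.7 CPM in the other P72 libraries and 40.6 CPM with R72, a split along the batches. On the list of complexes II to V, 11 of 39 genes lay above the range and 9 below it. With an unadjusted p under 0.05, COX8A of cytochrome oxidase and COX7A2L stood above the range and ATP5L of ATP synthase below it. ATP5L had 1172, 1208, 1099 and 1127 CPM against 901 CPM. Without R175H R72 replicate 1, 0 members of complexes II to V met both conditions above the range.

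Cholesterol is made from acetyl-CoA through mevalonate, and the genes of this route are driven by the membrane-bound factor SREBP2 when sterols are short. On the mevalonate list 8 of 20 genes lay below the P72 range and 3 above it, and 4 of the 8 had an unadjusted p under 0.05, all enzymes of the route. Over all genes tested 24% lay below the range and 23.3% above it. The median log2 fold change of the list was -0.177, with 5 of 20 positive. ACAT2, which joins acetyl-CoA at the entry, had 186, 203, 171 and 174 CPM with P72 and 123 CPM with R72 (log2 fold change -0.64, SE 0.143). EBP, a late sterol isomerase, had 120, 137, 120 and 122 CPM against 81.0 CPM (log2 fold change -0.63, SE 0.134). HMGCS1, which makes HMG-CoA, had 103.7 to 115.7 CPM with P72 against 90.0 CPM, and FDPS, which makes farnesyl diphosphate, 97.9, 101, 98.2 and 102 CPM against 79.1 CPM. By the rule that named these 4 enzymes the R72 library was the lowest of the 5, by 1.15-fold in HMGCS1 and 1.48-fold in EBP. Their adjusted p-values by edgeR were 0.149 for ACAT2 and EBP, 0.483 for HMGCS1 and 0.529 for FDPS. Leaving out any of the other 10 libraries kept the count at 4 to 5 and the median at -0.2 to -0.11.

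The list of sterol sensing, uptake and fatty acid synthesis had no common direction: 6 of 20 lay above the range and 7 below, with a median of 0.009. Shares of all genes tested were 23.3% above and 24% below. With an unadjusted p under 0.05, 3 of the list stood below the range, among them SREBF2 and ACLY, and ELOVL6 stood above it. SREBF2, which encodes SREBP2, had 209, 220, 201 and 190 CPM with P72 and 168 CPM with R72 (log2 fold change -0.33, SE 0.127). ACLY, which makes cytosolic acetyl-CoA from citrate, had 142, 123, 120 and 117 CPM against 105 CPM. Both genes were by rule lowest in the R72 library. ELOVL6, a fatty acid elongase, was highest there, with 71.3, 84.8, 80.2 and 73.1 CPM against 94.2 CPM.

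The promoter of SREBF2 is printed because it holds the sequence TCACCCCAC, of the form TCACNCCAC to which SREBP proteins are known to bind. The form was searched on both strands of the 250 bases before each RefSeq gene start (GRCh38.p14) and was found in 0.883% of all 35116 promoters. It was found in 0 of the 15 mevalonate genes and in 1 of the 18 genes of the sensing list that the promoter table holds. Promoters absent from the table or sites outside the window were not searched. The match, in capitals, lies 133 to 125 bases before the start.
SREBF2 promoter, chr22:41832855-41833104, plus strand: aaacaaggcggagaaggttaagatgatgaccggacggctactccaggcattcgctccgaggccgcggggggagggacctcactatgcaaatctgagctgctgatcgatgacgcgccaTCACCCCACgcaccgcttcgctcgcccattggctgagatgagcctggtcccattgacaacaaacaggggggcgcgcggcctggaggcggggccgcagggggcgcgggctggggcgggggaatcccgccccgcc

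Immediate early genes are switched on within minutes by growth factors, in large part through serum response factor and its partners at CArG boxes. Of 25 such and AP-1 genes, 9 lay below the P72 range and 1 above it, and 5 of the 9 had an unadjusted p under 0.05. The shares of all genes tested were 24% below and 23.3% above. The median log2 fold change of the list was -0.257, the lowest of the 26 gene lists, and 3 of 25 were positive. SRF, the gene of serum response factor, had 126, 98.9, 96.2 and 95.5 CPM with P72 and 67.0 CPM with R72 (a log2 difference of -0.76, SE 0.152, edgeR adjusted p = 0.119). The P72 library of the same batch was the highest and the R72 library the lowest, 1.43-fold below the nearest. EGR1, a zinc finger factor induced through it, had 57.0, 53.4, 52.1 and 54.8 CPM against 44.2 CPM (log2 fold change -0.38, SE 0.155).

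KLF6, a Krüppel-like factor, had 225, 218, 195 and 190 CPM with P72 and 163 CPM with R72. DUSP5, a phosphatase that turns off nuclear ERK, had 143, 138, 131 and 116 CPM against 104 CPM, and FOSL2, an AP-1 subunit, 32.4, 28.4, 27.2 and 28.1 CPM against 23.4 CPM. In each of these 3 genes the R72 library was by rule the lowest, by 1.12-fold to 1.17-fold. KLF2, with a log2 fold change of -0.47 (SE 0.154), had 178 CPM in P72 replicate 1, 119 to 124 CPM in the P72 libraries of b1 and 134 CPM with R72, within the range. Leaving out any of the other 10 libraries gave 4 to 6 members below the range with an unadjusted p under 0.05 and a median of -0.4 to -0.19. With no batch term the count was 3 and the median -0.045.

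The promoters of SRF and EGR1 are printed because, of the 19 immediate early genes that the promoter table holds, these 2 hold a CArG box (searched on both strands over 250 bases before the start, RefSeq, GRCh38.p14). Over all 35116 promoters 1.16% hold one. The matches are in capitals, 2 in each promoter. A match describes the letters and shows no binding.
SRF promoter, chr6:43171019-43171268, plus strand: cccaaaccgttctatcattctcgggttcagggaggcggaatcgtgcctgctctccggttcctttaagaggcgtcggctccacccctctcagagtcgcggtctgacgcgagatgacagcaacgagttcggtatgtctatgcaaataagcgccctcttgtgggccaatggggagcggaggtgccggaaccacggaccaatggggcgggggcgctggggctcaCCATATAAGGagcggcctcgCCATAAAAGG
EGR1 promoter, chr5:138465229-138465478, plus strand: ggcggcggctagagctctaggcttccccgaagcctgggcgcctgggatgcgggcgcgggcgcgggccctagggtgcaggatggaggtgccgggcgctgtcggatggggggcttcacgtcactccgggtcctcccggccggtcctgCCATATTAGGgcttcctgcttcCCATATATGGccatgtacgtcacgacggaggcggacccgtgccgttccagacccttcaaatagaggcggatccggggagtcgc

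**Figure D3:**
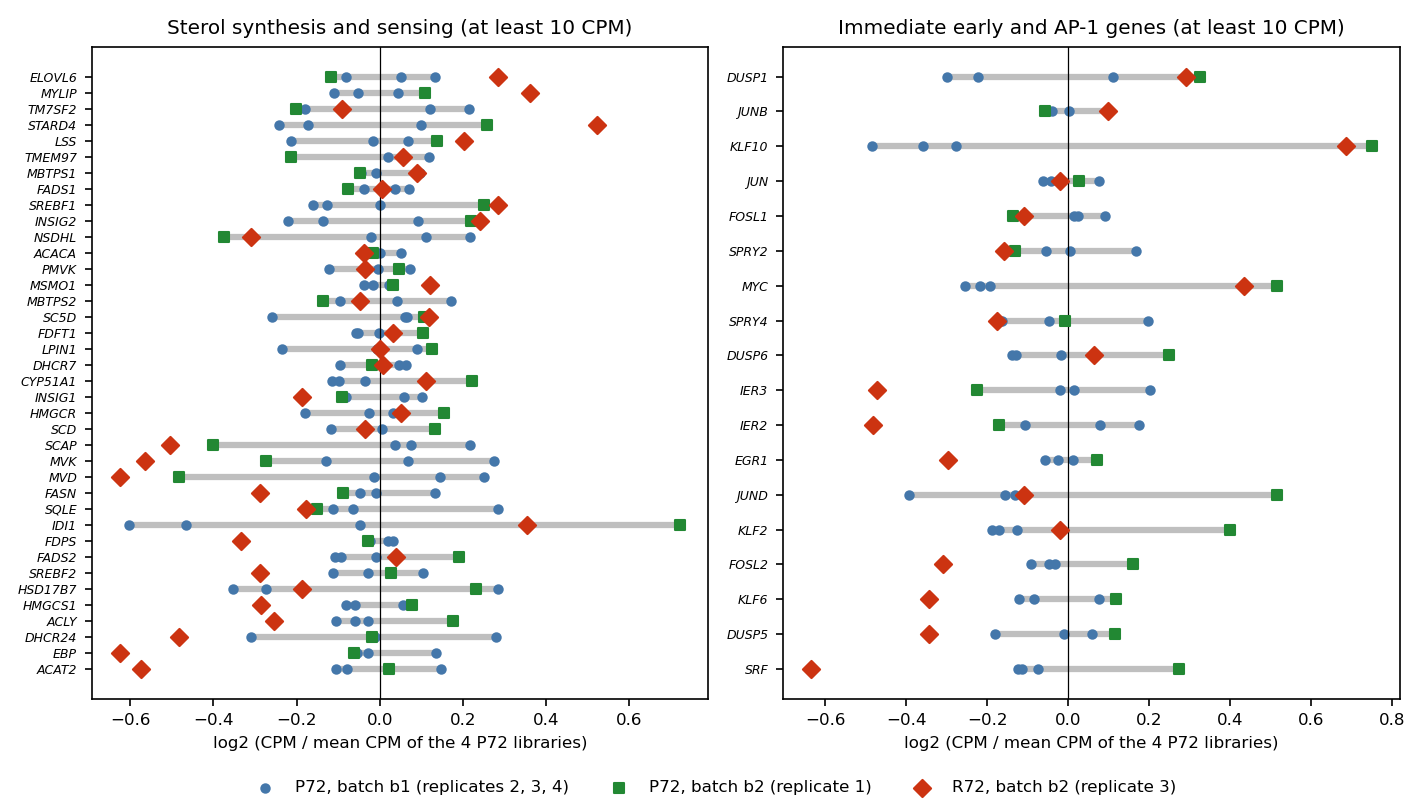
Rows are genes of both sterol lists (left, 1 of them left out) and of the immediate early list (right) of at least 10 CPM, ordered by fitted fold change, and the horizontal axis gives log2 of CPM over the mean CPM of the 4 P72 libraries, with the P72 range as a grey bar. The R72 diamonds lie left of the bar for ACAT2, EBP, SRF, DUSP5 and KLF6, while in MYC, KLF10 and IDI1 the P72 library of batch b2 is the highest and the R72 diamond lies inside the bar.

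Targets of YAP and TEAD, which report on cell shape and density, had no common direction, with 5 of 19 above the range, 4 below and a median of 0.005. Shares of all genes tested were 23.3% above and 24% below. ANKRD1, given above, stood below the range with an unadjusted p under 0.05. CYR61, a secreted matricellular protein, had 1826, 1052, 853 and 974 CPM with P72 and 870 CPM with R72, within the range. P72 replicate 1 was far above the other 4 libraries in that gene, and the log2 fold change of -1.32 (SE 0.386) came with a ratio of -1.07 for both b2 libraries alone.

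Integrins join the matrix to the cytoskeleton, with focal adhesion proteins on the inside. Of 27 integrins and partners, 8 lay above and 2 below the P72 range, and 3 above it had an unadjusted p under 0.05. ITGA3, the α chain of a laminin receptor, had 363, 440, 475 and 445 CPM with P72 and 513 CPM with R72 (a log2 difference of 0.52, SE 0.12, edgeR adjusted p = 0.149). PTK2, the focal adhesion kinase, had 111, 106, 121 and 115 CPM against 143 CPM, and PXN, the adaptor paxillin, 549, 454, 471 and 523 CPM against 624 CPM. The R72 library was by rule the highest in all 3, by 1.08-fold in ITGA3 and 1.18-fold in PTK2. For all genes tested the shares above and below the range were 23.3% and 24%. The median of the list was 0.123, and 2 to 3 members met both conditions above the range whichever of the other libraries was left out.

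In the extracellular matrix and its proteases 13 of 33 genes lay above the range and 5 below, 5 and 2 of them with an unadjusted p under 0.05, around a median of 0.017. Among all genes tested 23.3% lay above the range and 24% below. LAMA5, a laminin α chain, had 74.3, 63.3, 61.1 and 65.7 CPM with P72 and 108 CPM with R72 (log2 fold change 0.61, SE 0.151). COL6A1, a chain of collagen VI, had 29.2, 33.3, 36.2 and 35.8 CPM against 40.4 CPM. The R72 library was 1.45-fold above the highest P72 library in LAMA5 and 1.12-fold in COL6A1. The membrane protease gene MMP14 had 279 CPM with R72 against 216 to 267 CPM, and the collagenase gene MMP1, at low counts, 2.99 CPM against 1.24 to 2.70 CPM. The protease inhibitors went both ways: TIMP1 had 203 CPM against 171 to 198 CPM, and TIMP2 had 200.2 CPM against 251 to 271 CPM. Without P72 replicate 1 the count below the range was 1, and with no batch term 1 gene met both conditions above the range. With the R273H libraries alone 3 did.

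Genes of TGF-beta signalling lay above the range in 11 of 25 cases and below in 1, and 3 above it had an unadjusted p under 0.05. The background shares of all genes were 23.3% above and 24% below. LTBP3, which stores the latent ligand in the matrix, had 119, 151, 164 and 154 CPM with P72 and 169 CPM with R72 (log2 fold change 0.53, SE 0.135). SKI, a nuclear repressor of SMAD proteins, had 40.9, 43.0, 48.9 and 47.1 CPM against 52.0 CPM, and PMEPA1, an inhibitor of the pathway, 26.1, 22.9, 24.3 and 28.3 CPM against 32.6 CPM. These are a ligand-binding protein and 2 antagonists, and each was by rule highest in the R72 library. The distance was 1.03-fold in LTBP3 and 1.15-fold in PMEPA1. The median of the list was 0.124. Without P72 replicate 2, and with DESeq2, 1 member met both conditions.

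On the list of epithelial and mesenchymal state 10 of 18 genes lay above the range and 2 below, with a median of 0.18. All genes tested had shares of 23.3% above and 24% below. TWIST1, a mesenchymal transcription factor, had 7.62, 8.68, 8.997 and 9.83 CPM with P72 and 11.8 CPM with R72. TGFBI, a secreted protein induced by TGF-beta, had 4.36, 2.81, 4.38 and 3.91 CPM against 7.37 CPM, while ZEB2, another mesenchymal factor, was lower with 14.5, 15.6, 15.7 and 11.3 CPM against 9.24 CPM. Epithelial genes of the list stood on the same side too: KRT7, KRT8, TJP1 and DSP lay above the range. CLDN1 and OCLN lay within it and KRT18 below it, so the list median gives no direction of state. TWIST1 and TGFBI were by rule highest and ZEB2 was lowest in the R72 library. These 3 genes had an unadjusted p under 0.05. The count above the range was 4 without R175H P72 replicate 4 or without P72 replicate 3, and 1 without R175H R72 replicate 1. It was also 4 with library totals or no filter on low counts, and 1 with DESeq2 or the filter at 10 CPM. It fell as well in batch b2 and in the R273H libraries alone.

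Genes of DNA replication lay below the P72 range in 16 of 39 cases and above in 7, and 5 below it had an unadjusted p under 0.05, with a median of -0.11. POLD1, the catalytic subunit of DNA polymerase δ, had 9.10, 9.03, 10.5 and 10.2 CPM with P72 and 3.73 CPM with R72 (a log2 difference of -1.21, SE 0.288, edgeR adjusted p = 0.164). POLD1 and FEN1 share exonic sequence with a gene of their own strand. For POLD1 the R72 value was 2.42-fold below the lowest P72 library. FEN1, the flap endonuclease, had 79.5, 76.4, 60.8 and 64.0 CPM against 51.1 CPM, and RRM1, the large subunit of ribonucleotide reductase, 299, 312, 266 and 251 CPM against 215 CPM. MCM3, of the replicative helicase, had 135, 141, 129 and 116 CPM against 100.5 CPM, and RFC4, of the clamp loader, 106, 125, 112 and 110 CPM against 91.1 CPM. Shares over all genes tested were 24% below the range and 23.3% above it. In all 5 genes the R72 library was by rule the lowest, and apart from POLD1 by less than 1.2-fold. Without P72 replicate 1, and with no filter on low counts, the count was 9.

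Mitotic genes went both ways, with 9 of 35 above and 12 below, beside 23.3% and 24% of all genes tested. CCNF, cyclin F, had 93.4, 127, 108 and 98.4 CPM with P72 and 70.6 CPM with R72, and TOP2A, topoisomerase IIα, 1760, 2509, 1873 and 2062 CPM against 1378 CPM. NDC80, of the kinetochore, had 136 CPM with R72 against 159 to 178 CPM. The R72 library was by rule lowest in these 3 genes and highest in UBE2C. UBE2C, the ubiquitin carrier of the anaphase-promoting complex, had 735 CPM against 564 to 628 CPM. Without R175H R72 replicate 1 the count of mitotic genes below the range with an unadjusted p under 0.05 was 1 and not 3, as it was in batch b2 alone, and with no batch term it was 5.

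Tubulins build microtubules as pairs of an α and a β chain. TUBA1B, an α-tubulin (ENSG00000123416, chr12:49127782-49131397), had 2046, 1551, 1565 and 1313 CPM with P72 and 1134 CPM with R72 (a log2 difference of -0.81, SE 0.139, edgeR adjusted p = 0.0616). In TUBA1B the P72 library of batch b2 was the highest, and the fitted batch difference was 0.42 (b2 minus b1, log2). Its R72 value was 1.16-fold below the lowest P72 library, and with no batch term its log2 fold change was -0.51. TUBA1C had 3030, 3596, 3261 and 3126 CPM against 2098 CPM (log2 fold change -0.49, SE 0.135). TUBB3, a β-tubulin of neurons and many tumours, had 246, 226, 248 and 259 CPM against 307 CPM. Both α-tubulins were by rule lowest and TUBB3 highest in the R72 library, and TUBB3 shares exonic sequence with a gene of its own strand. TUBA1A, TUBA1B and TUBA1C are near-identical in their coding sequence, and summed over the 3 they had 5220, 5210, 4910 and 4520 CPM against 3330 CPM (log2 fold change -0.59, adjusted p = 0.148 by edgeR). The sum lay below the range, as TUBA1B and TUBA1C did alone. Of the 15 tubulins tested, 7 lay below the range and 1 above it, beside 24% and 23.3% of all genes.

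In fatty acid oxidation 8 of 23 genes lay above the range and 4 below it, and 4 above it had an unadjusted p under 0.05. CPT1B and CPT2, the carnitine transferases of the outer and inner membrane, had 18.6 CPM against 13.8 to 16.1 CPM and 24.9 CPM against 16.6 to 19.7 CPM. ACADM, the medium-chain dehydrogenase, had 43.5, 45.5, 45.6 and 44.7 CPM with P72 and 54.7 CPM with R72, and ETFA, the electron carrier behind it, 244, 190, 196 and 214 CPM against 287 CPM. Beside the list, 23.3% of all genes tested lay above the range and 24% below it. These 4 members were by rule highest in the R72 library, and CPT1B shares exonic sequence with a gene of its own strand. With RLE scaling, DESeq2, no filter or batch b2 alone 2 members met both conditions, and 1 did with the R273H libraries alone. The count was 1 without R175H P72 replicate 1, without R273H P72 replicate 1 or without R273H P72 replicate 2, and 2 without R175H P72 replicate 2, R175H R72 replicate 1, R175H R72 replicate 4 or R273H P72 replicate 3.

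In the TCA cycle and pyruvate entry 10 of 38 genes lay above the range and 12 below, 1 and 4 of them with an unadjusted p under 0.05. GOT1, OGDH, PDHA1 and ACO1, enzymes of or beside the cycle, had log2 fold changes of -0.35, -0.34, -0.30 and -0.30, and PDK2, a kinase that inhibits pyruvate dehydrogenase, 0.36. PDHA1, a subunit of pyruvate dehydrogenase, had 70.1, 71.2, 77.6 and 67.3 CPM with P72 and 56.5 CPM with R72. Above and below the range lay 23.3% and 24% of all genes tested. The count below the range was 1 without R175H R72 replicate 1 and 2 without P72 replicate 3. It was 1 with scaling by library totals and 2 in batch b2 or the R273H libraries alone. In glycolysis both major hexokinases were lowest in the R72 library. HK2 had 40.3, 32.4, 31.9 and 30.8 CPM against 25.9 CPM (log2 fold change -0.69, SE 0.168), and HK1 had 41.8, 42.7, 39.8 and 39.1 CPM against 29.5 CPM. SLC16A1, a lactate carrier, was lowest too, at 157 CPM against 172 to 218 CPM, while the aldolase gene ALDOA was highest, at 680 CPM against 579 to 624 CPM. Without R175H R72 replicate 2, and with library totals, the count of glycolytic genes below the range was 1 and not 3.

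The remaining lists are given by their counts, beside 23.3% of all genes tested above the range and 24% below it. Of 78 cytosolic ribosomal proteins 24 lay above the range and 11 below, with RPL35 and RPL41 above and RPS12, RPL27A and RPS24 below at an unadjusted p under 0.05. RPS12 had 458, 421, 389 and 410 CPM with P72 and 321 CPM with R72 (log2 fold change -0.53, SE 0.126). The count above was 1 without R175H R72 replicate 2 or 4, and the count below was 5 in batch b2 or in the R273H libraries alone. Of 29 canonical p53 targets 6 lay above and 10 below, and 2 met both conditions below the range, among them GADD45A, a growth arrest gene. GADD45A had 66.7, 70.8, 56.2 and 57.4 CPM against 51.5 CPM. Of 20 NF-kB subunits and targets 3 lay above and 7 below, and 0 met both conditions. The median of that list was -0.13, with 6 of 20 positive.

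Hypoxia genes went both ways. ADM, ANGPTL4, a secreted inhibitor of lipoprotein lipase, and HILPDA, a lipid droplet protein, stood below the range. P4HA1, a collagen prolyl hydroxylase, stood above it. ANGPTL4 had 196, 260, 232 and 206 CPM with P72 and 144 CPM with R72. Among interferon and antigen presentation genes HLA-E and the peptide transporter gene TAP2 stood below and STAT2, IFITM3 and the immunoproteasome gene PSMB8 above. HLA-E, which presents leader peptides to natural killer cells, had 129, 122, 142 and 150 CPM against 91.8 CPM. Without R175H R72 replicate 1, in batch b2 and in the R273H libraries alone the counts in that list were 1 above and 1 below, with no batch term 1 was above, and without P72 replicate 1 there were 5 above. ASNS, asparagine synthetase, of the integrated stress response, and SRXN1, an NRF2 target, were lowest in the R72 library, and NQO1, another NRF2 target, was highest there, at 163 CPM against 123 to 140 CPM. Of 12 replication-dependent histones 2 met both conditions above the range (HIST1H1D and HIST2H2BE) and 2 below it (HIST1H1C and HIST1H2BJ). Leaving out R175H P72 replicate 1, R175H R72 replicate 1 or 4, or R273H P72 replicate 2 or 3 left 1 histone above, and leaving out R273H P72 replicate 1 or 4 left 1 below.

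**Figure D4:**
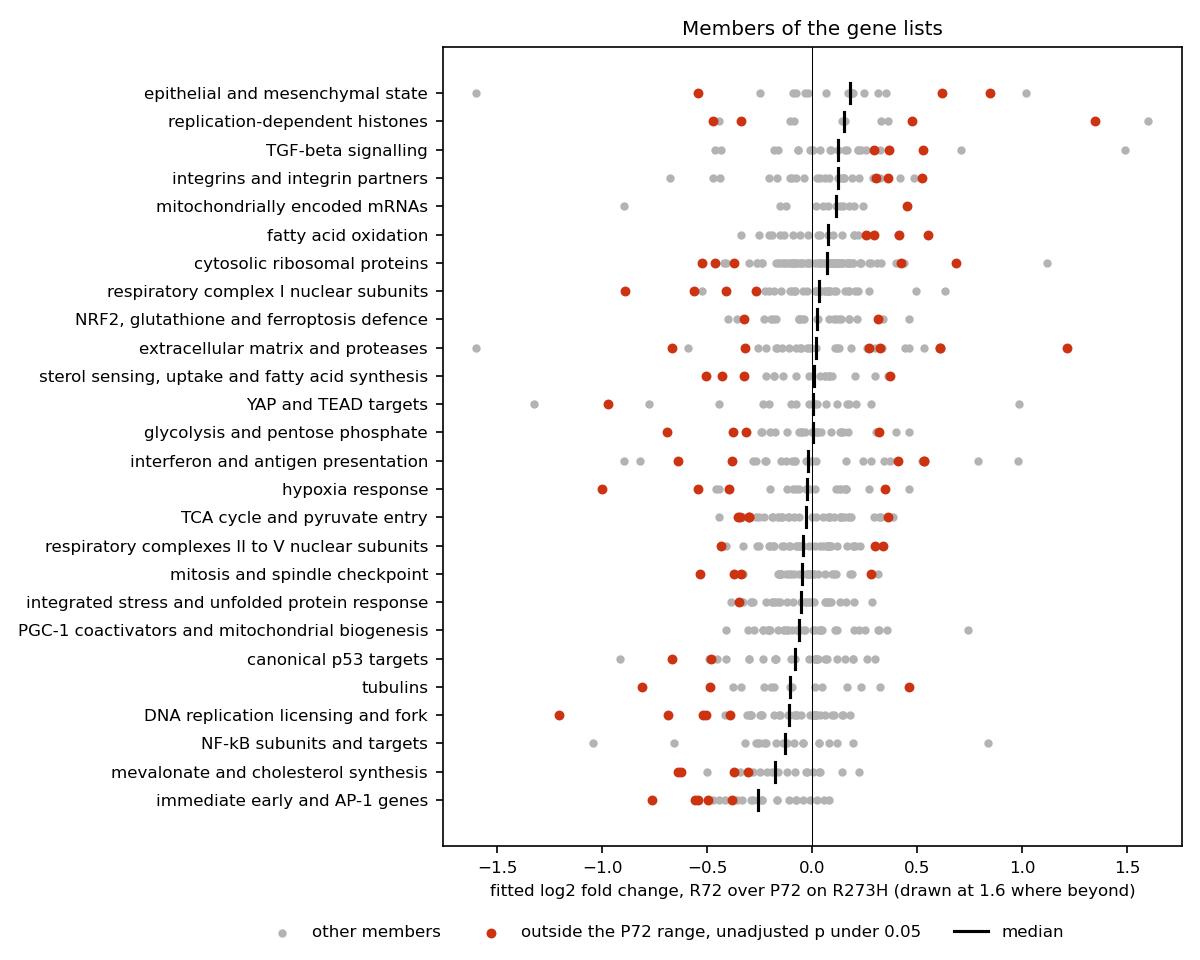
Each point is a gene of 1 of the 26 lists, placed by its fitted log2 fold change of R72 over P72 on R273H (points beyond 1.6 are drawn at 1.6), red where the R72 library lay outside the P72 range with an unadjusted p under 0.05, with the list median as a black bar. Medians run from -0.257 for immediate early genes and -0.177 for mevalonate synthesis to 0.18 for the epithelial and mesenchymal list.

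The markers of other cell types were low in all 5 libraries and those of the carcinoma line high. Summed markers reached 2.97 CPM with R72 against 4.29 to 6.03 CPM with P72 for endothelium, 4.21 against 3.43 to 6.77 CPM for fibroblasts and 13.6 against 9.67 to 16.6 CPM for leukocytes. They reached 28.1 against 22.1 to 30.9 CPM for neuroendocrine cells, 2.11 against 1.39 to 1.84 CPM for squamous cells and 0.958 against 1.27 to 2.43 CPM for alveolar cells. The 6 markers of the line, among them VIM, KRT8 and KRT18, summed to 2630 CPM against 2190 to 2380 CPM. Between 2 and 5 genes of each of the other lists were at 0 in all 5 libraries. Sums below the P72 range (endothelium, alveolar cells) and above it (squamous cells, the line) are small shifts of a few CPM except in the line, and their part in the differences given here was not tested. In bulk RNA fewer cells of a type and less RNA per cell cannot be told apart.

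The same codon 72 contrast on R175H has its own R72 and P72 libraries. In the 8968 genes of at least 10 CPM, and within batch b2 with no fit and no library in common, the log2 difference of R72 and P72 on R273H (1 library each) and that on R175H (mean of 2 R72 libraries minus mean of 3 P72 libraries) had Pearson r of -0.079 and Spearman rho of -0.038 across genes, which are not independent replicates. They had the same sign in 49.2% of genes. In the fit of all 11 libraries, where both contrasts share the batch term, edgeR on R175H called 52 genes higher (0.319%) and 133 lower (0.815%) with R72. None of the 12 highest and 12 lowest genes on R273H was called on R175H. With 0.319% and 0.815% of all genes called there, this absence does not set these genes apart. Their fitted fold changes on R175H ran from -0.61 to 0.55.

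The difference between the R72 effects on both mutants was called for 5 of the genes tested (0.0306%). TUBA1B had 1085, 965 and 933 CPM in the R175H P72 libraries and 876, 1132 and 1117 CPM in the R175H R72 libraries. The 876 CPM was R72 replicate 1 of batch b1, and both R72 libraries of b2 lay above the R175H P72 values. For TUBA1B the effect on R273H minus that on R175H was -1.01 (SE 0.176). Summed with TUBA1A and TUBA1C the difference was -0.52 (adjusted p = 0.249). SMIM11B, of a small membrane protein, was lower with R72 on R273H (56.3, 54.3, 48.8 and 51.6 CPM against 34.8 CPM) and higher with R72 on R175H, a difference of -1.28 (SE 0.228, adjusted p = 0.0432). It has a near-identical copy, SMIM11A, and with both summed the R72 library lay within the range and the difference was -0.20 (adjusted p = 0.83). TRPM8, a cold-sensing channel, stood at 1.71, 1.99, 1.73 and 1.58 CPM with P72 and 0.933 CPM with R72 on R273H. On R175H it stood at 0.403 to 1.02 CPM with P72 and 8.47 to 9.14 CPM with R72, a difference of -4.38 (SE 0.632, adjusted p = 0.0101).

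MAF1, a repressor of RNA polymerase III, and SNHG25, a host of small nucleolar RNA, lay within the P72 range on R273H. MAF1 had 49.5, 60.4, 70.6 and 63.1 CPM with P72 and 66.4 CPM with R72, and SNHG25 had 1181, 1484, 1700 and 1512 CPM against 1636 CPM. In both genes P72 replicate 1 was the lowest of the R273H libraries, and the batch term of the fit was called (adjusted p = 0.00196 and 0.000991 by edgeR). On R175H, MAF1 had 87.3 to 98.7 CPM with P72, 91.0 CPM in R72 replicate 1 of batch b1, and 58.0 and 62.9 CPM in the R72 replicates of b2. SNHG25 had 2251 to 2396 CPM with P72, and 2443 CPM in R72 replicate 1 against 1652 and 1685 CPM in the others. Their differences of effects were 1.08 (adjusted p = 0.032) and 0.98 (adjusted p = 0.032). With each library's GC trend removed they were 0.94 and 0.86, both with an adjusted p of 0.0688 by edgeR, as for TUBA1B and SMIM11B, and TRPM8 stayed called (adjusted p = 0.0111).

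**Figure D5:**
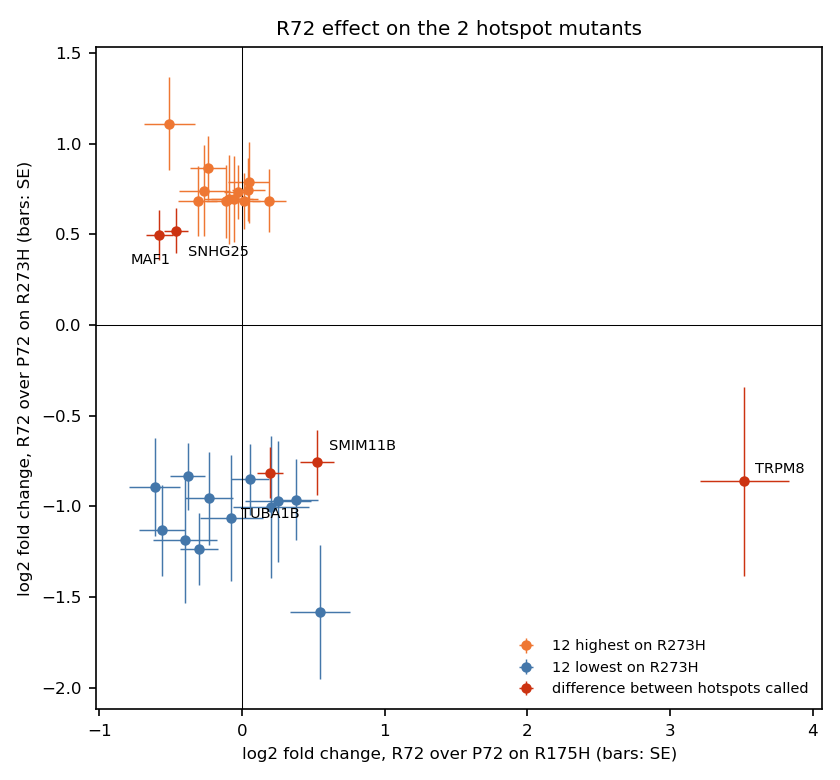
Each point is a gene placed by its fitted log2 fold change of R72 over P72 on R175H (horizontal) and on R273H (vertical), with bars of 1 SE, for the 12 highest, the 12 lowest and the 5 genes called for the difference. TRPM8 lies far to the right at 3.52 on R175H, and the 24 genes of R273H spread on both sides of 0 on R175H, from -0.61 to 0.55.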

How the data were processed

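Messenger RNA of H1299 cells was read by Lexogen QuantSeq 3′ sequencing, single 75 bp reads on a NextSeq 500, per the labels' protocols. The deposited values were estimated counts per gene, whole numbers, in 11 columns matched to libraries by title. Per the submitters' processing notes the authors used Bowtie2, RSEM 1.2.12 and DESeq2 on hg38, with no order or settings. RSEM shares out reads that match several genes. Use of strand and the annotation release are not given in the sources used here.

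Genes were kept with filterByExpr (minimum count 10, minimum total 15), scaled by TMM and fitted with edgeR 4.0.16 (R 4.3.3), robust quasi-likelihood, on the 4 groups and batch over all 11 libraries. Residual degrees of freedom were 6, and the spread of the lone R72 library was taken from the other groups. Benjamini-Hochberg adjustment ran over the 16324 genes kept, with 0.05 as the threshold. The median SE of a log2 fold change was 0.166 for genes of at least 10 CPM. The range used CPM without batch correction, and the ratio of both b2 libraries had 0.5 CPM added to each. The counts of the 5 libraries differed by more than sampling noise in every pair (chi-square divided by its degrees of freedom was 4.06 to 21.9) and none was counted as a duplicate. Annotation came from GENCODE 29, which holds 42551 of 45965 gene IDs. The procedure was tested on simulated counts.

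The genes named were PPARGC1A, PPARGC1B, the 12 highest and 12 lowest fold changes of at least 10 CPM outside the range with an unadjusted p under 0.05 and a named symbol, the genes called for the difference between mutants, and up to 4 members of each list with the smallest p, or all that met both conditions where there were at least 3. Some genes this rule took are not described, and some items are not reported here. The libraries compared, the 26 gene lists and 7 marker lists were chosen with earlier results of these data known. Lists are described by counts and medians and were not tested as sets. The alternatives tried were scaling by RLE or by library totals, dropping the filter, filtering at 10 CPM in 3 or more libraries, limma-voom (limma 3.58.1), DESeq2 1.42.0, no batch term, GC trend removed (spline of 5 degrees of freedom on the last 500 nt), a replicate block, batch b2, the R273H libraries, and each other library left out.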

Additional observations from a re-analysis of the deposited data

Results flagged for a closer look

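In the 4 R273H P72 libraries 10 of 131 values had a library far from the other 3 by Dixon's 95% limit, which chance gives for about 1 in 20 groups. P72 replicate 1 was apart in 5 genes and in its GC trend. SRF had 125.8 CPM there against 95.55 to 98.89 CPM in the other P72 libraries. KLF2 had 178.5 CPM against 118.7 to 124 CPM, ATP5G3, an ATP synthase subunit, 741.7 CPM against 556.4 to 584.4 CPM, and HK2 40.28 CPM against 30.76 to 32.38 CPM. CPT1B was lower there, at 13.84 CPM against 15.72 to 16.07 CPM. The GC trend was -0.0709 log2 units per 10% GC against 0.041 to 0.0556. P72 replicate 2 was apart in EBP (137 CPM against 119.7 to 122.5 CPM) and in its TMM factor (0.9793 against 1.002 to 1.003). SRXN1 was low in P72 replicate 3 (97.24 CPM against 116.6 to 120.4 CPM) and HIST2H2BE high in P72 replicate 4 (12.89 CPM against 10.97 to 11.07 CPM).

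In 5 genes the effect of R72 differed between both mutants by the edgeR contrast of both effects, as log2 differences of R273H minus R175H. They were -1.01 for TUBA1B, 0.98 for SNHG25, -1.28 for SMIM11B, 1.08 for MAF1 and -4.38 for TRPM8. Over the alternatives TRPM8 was called in 16 of 19, MAF1 and SNHG25 in 12 of 20, TUBA1B in 11 of 20 and SMIM11B in 10 of 20.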

How the results depend on the processing

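The count of 0 genes called by edgeR on R273H was also 0 with RLE scaling, library totals, the filter at 10 CPM, limma-voom, no batch term and the GC trend removed. It was 137 with no filter on low counts, 112 with DESeq2, 2 with the replicate block, 1 in batch b2 and 18 in the R273H libraries alone. Leaving out 1 library gave 0 to 6 calls: 6 without R175H P72 replicate 4, 3 without R175H R72 replicate 4 or R273H P72 replicate 1, 2 without R175H R72 replicate 1 or R273H P72 replicate 4, and 1 without R175H R72 replicate 2. The 451 genes above the range with an unadjusted p under 0.05 became 227 with DESeq2, 248 with the replicate block and 292 in the R273H libraries alone. The 611 below became 922 with no batch term and 313 with the replicate block. The 5 differences between mutants became 196 with no filter, 121 with DESeq2, 1 with no batch term or the GC trend removed and 2 with the replicate block. Leaving out 1 library gave 0 (R175H R72 replicate 2) to 48 (R273H P72 replicate 1), with 34 without R175H P72 replicate 4, 18 without R273H P72 replicate 2, 15 without R175H R72 replicate 1, 11 without R175H P72 replicate 1, 3 without R273H P72 replicate 3, 2 without R175H R72 replicate 4 or R273H P72 replicate 4 and 1 without R175H P72 replicate 2. Of 2639 fold changes of named genes under alternatives 2634 kept their sign. The exceptions were PPARGC1B and NDUFB3 with no batch term (-0.0376 and 0.4037) and PPARGC1B, MT-CO2 and MT-ND3 without R273H P72 replicate 1 (-0.1212, -0.05494 and -0.1077). Over all libraries left out in turn these 3 ran up to 0.0929, 0.3356 and 0.327, each without R175H R72 replicate 1. With no filter 42 of the named genes passed the edgeR threshold, with DESeq2 27 and in the R273H libraries alone 10. The causes were not tested. The replicate numbers do not pair the samples (correlation of deviations -0.61 to 0.25), and R72 and P72 on R273H share number 3 alone. With the replicate block the members that met both conditions fell in number from 4 to 2 in mevalonate synthesis (median -0.068) and complex I, from 3 to 1 in sterol sensing, integrins, TGF-beta signalling and glycolysis, from 5 to 3 in immediate early genes and matrix, and from 4 to 0 in fatty acid oxidation. They fell to 0 above and 0 below the range in the epithelial and mesenchymal list and in complexes II to V.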

Other observations

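Grouped by the GC content of their 3′ ends, the share of genes of at least 10 CPM below the range with an unadjusted p under 0.05 was 2.46% under 35% GC, 3.19% from 35% to 40%, 4.25% from 40% to 45%, 6.33% from 45% to 50%, 7.61% from 50% to 55%, 5.65% from 55% to 60% and 11.2% from 60%. The share above the range was 3.6% in the first and 6.13% in the last of these groups. By chromosome the median log2 fold change ran from -0.055 (chromosome 21) to 0.048 (chromosome 18).

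GAGE12E, a cancer-testis antigen gene chosen after its values were seen, is listed at 0 in the R72 library and at 18.4, 679, 604 and 454 CPM in P72 replicates 1, 2, 3 and 4. Summed over 13 near-identical GAGE copies the family had 2520, 2650, 2740 and 2720 CPM with P72 and 2530 CPM with R72, within the range. PPP1R14B, a phosphatase inhibitor, and FKBP2, a prolyl isomerase of the endoplasmic reticulum, were among the genes with the smallest p from DESeq2, a choice also made after seeing the values. PPP1R14B had 330, 302, 327 and 311 CPM with P72 and 490.4 CPM with R72, and FKBP2 had 217, 223, 213 and 233 CPM against 140 CPM, both outside the range.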
